A study of Homo sapiens with 6 samples.

Results

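The cadherin superfamily was followed in Caco-2, an established human colorectal tumour line whose cells form a polarised, enterocyte-like epithelium. Members were the rows of the deposited gene table whose symbols belong to the CDH, PCDH, DSC, DSG, FAT, CELSR or DCHS families, leaving out 4 rows described as pseudogenes, and there were 105 of them among 27685 genes. Polyadenylated RNA was sequenced from 2 groups of 3 libraries. The vector control group was mock-transfected (pcDNA3, an expression plasmid) and has the genotype label WT. The other group, derived from it, is titled hFABP1as, read here as antisense to the fatty acid carrier gene FABP1, and has the genotype label FABP1_knockdown. The sources used here state neither how many clones each group came from nor whether libraries are separate cultures, so p-values measure how far these libraries vary, and that variation may be technical.

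Cadherins are calcium-dependent adhesion molecules of the cell surface. Classical cadherins such as E-cadherin hold epithelial cells together at adherens junctions and bind catenins inside the cell, and desmocollins and desmogleins do the same work in desmosomes, which are anchored to keratin filaments. Protocadherins are mostly known from neurons, where many are made from 3 neighbouring gene clusters in which each variable exon has its own promoter. FAT, DCHS and CELSR proteins are giant cadherins involved in planar cell polarity.

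Total counts ranged from 40351394 to 57979037 per library. FABP1 itself, the targeted gene, did not fall: its level was 138, 102 and 121 CPM in the control against 134, 147 and 122 CPM (edgeR adjusted p = 0.268). CPM is counts per 1e6 of the scaled library size. No source used here says whether counting used strand, so reads of an antisense transcript could be counted as FABP1. These counts also hold no protein, and whether the knockdown took effect was not tested. The word antisense is used here only as a group label, and a rise or fall is that of these libraries relative to the vector control. Of 9 markers of an intestinal epithelial line, CDH17 among them, 8 were expressed well enough to test, and CDX1 had 0 counts in the control. The summed level of all 9 was 14082 to 17442 CPM in the control and 15845 to 18756 CPM in the other group, most of it KRT8 and KRT18. Of the 8, 3 were higher, CDH17, CDX2 (log2 fold change 1.09) and KRT18 (0.27). KRT19 (-0.51) and VIL1 (-0.20) were lower, and EPCAM, KRT8 and HNF4A did not pass. Of other cell types, the leukocyte marker PTPRC, the endothelial markers CDH5, KDR and TEK and the fibroblast markers COL1A2, DCN and THY1 had 0 counts in every library. The summed leukocyte markers stood at 44.3 to 48.1 CPM in the control and 63.7 to 66.9 CPM in the other group. The 5 endothelial markers stood at 0.833 to 1.42 and 2.39 to 2.67 CPM. The leukocyte markers did not move one way: CD68, LYZ and CSF1R rose, and CD14 fell from 12.8 to 2.46 CPM. The fibroblast sum, at 1484 to 1684 and 1349 to 1409 CPM, was nearly all FN1. Of that list 3 genes were higher and 3 lower, with LUM at 0.133 CPM in the control and 18.1 CPM in the other group and PDGFRA at 22.7 and 0.386 CPM. The sums of neural markers (14.2 to 18.9 and 16.1 to 19.2 CPM) and keratinocyte markers (15.1 to 16.8 and 15.8 to 17.6 CPM) overlapped between the groups. TUBB3 gave most of the neural sum and did not pass, while SYP rose from 2.31 to 5.66 CPM. KRT10 gave nearly the whole keratinocyte sum, and KRT5 and KRT1 had 0 counts. TP63, too low to test, had 3 counts over the control group and 24 over the other. The part of other cell types in the results was not tested. In such bulk RNA, fewer cells of a kind and less RNA per cell cannot be told apart.

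Caco-2 cells expressed a small part of the superfamily at high level. Of the 105 members, 28 had 0 counts in all 6 libraries, 31 had some counts but too few to be tested, and 46 passed the filter on low counts (about 10 counts in each of at least 3 libraries). Among those 46, 23 were higher and 7 lower in the libraries labelled FABP1 antisense (edgeR's quasi-likelihood test, Benjamini-Hochberg adjusted p under 0.05), and 16 did not pass. The same rule called 27.7% of all tested genes higher and 27.3% lower. With a 2-fold minimum, 19 members were higher and 4 lower, against 8.8% and 6.12% of all tested genes. In 26 tested members every antisense library lay above every control library (31.7% of all tested genes), and in 7 every one lay below (31%). The median log2 fold change of the 46 was 1.09 and that of all tested genes 0.01. Of the 46, 20 did not reach the filter level in all 3 control libraries, so low members that rose were kept more readily than low members that did not, and these counts describe the members without supporting a claim about the superfamily. The clustered protocadherins made up most of the rises: without them 8 members were higher and 6 lower.

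**Figure D1:**
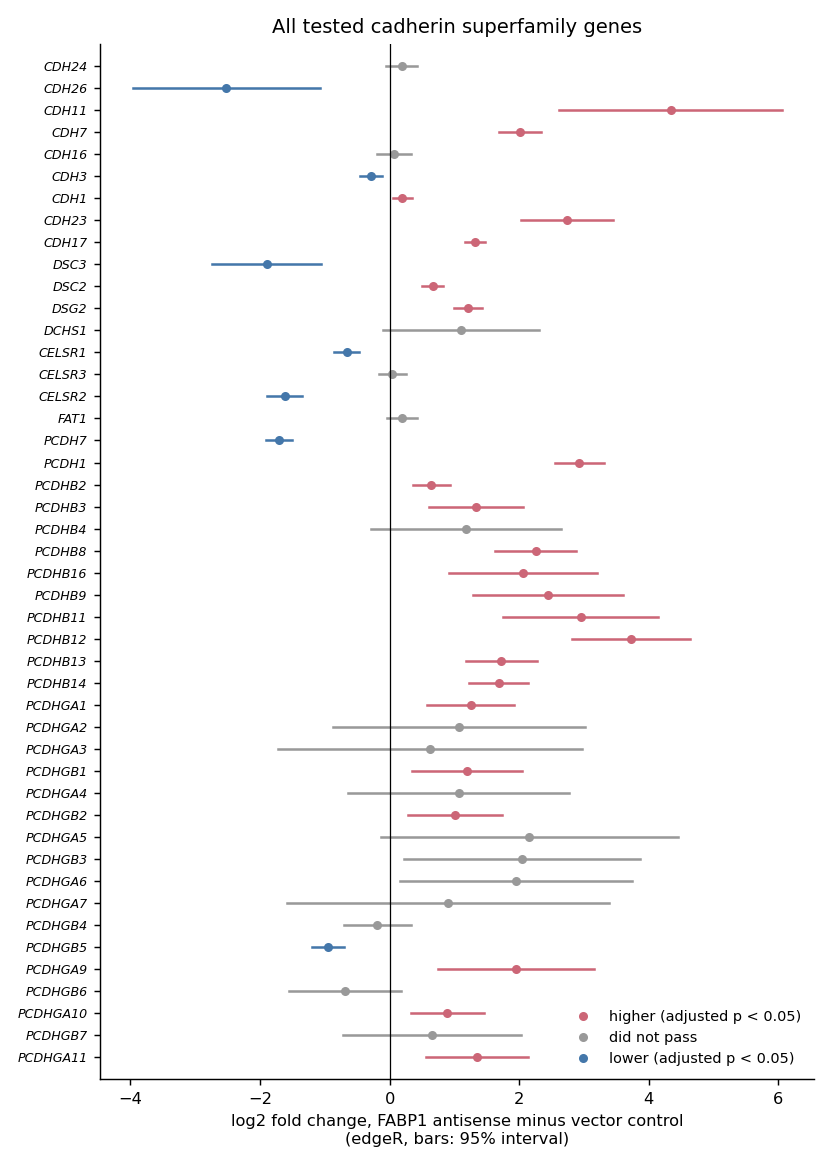
Log2 fold change (horizontal axis, FABP1 antisense minus vector control) of each of the 46 tested members, with its 95% interval from edgeR. PCDHB genes lie to the right of 0, PCDHGB5 lies to the left at -0.95, and outside the clusters PCDH1 (2.93) and PCDH7 (-1.71) lie on opposite sides.

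Per kilobase of transcript, CDH1 and CDH17 were the most abundant members in both groups. CDH1 encodes E-cadherin, the main adhesion molecule of epithelial adherens junctions, and CDH17 encodes LI-cadherin, an adhesion molecule of intestinal epithelium with a short cytoplasmic tail that does not bind catenins. In the vector control CDH1 stood at 112 ± 5.73 and CDH17 at 86.6 ± 5.75 CPM per kb (SD, n = 3). In the libraries labelled FABP1 antisense the order was the reverse, with 129 ± 3.90 CPM per kb for CDH1 and 216 ± 4.74 CPM per kb for CDH17. CDH3 (30.0 ± 1.25), FAT1 (26.0 ± 3.96), DSG2 (13.5 ± 1.60) and CDH16 (11.6 ± 1.12 CPM per kb) followed in the control, where the SD ranges of CDH3 and FAT1 overlapped, as did those of DSG2 and CDH16. In the other group the following order was DSG2 (31.2 ± 1.88), FAT1 (29.7 ± 1.16), CDH3 (24.5 ± 1.75), PCDH1 (14.8 ± 1.07) and CDH16 (12.1 ± 1.71 CPM per kb). There the SD ranges of DSG2 and FAT1 overlapped, as did those of PCDH1 and CDH16.

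CDH17 (gene ID 1015) had the largest rise in CPM of any member. Its level was 326, 338 and 296 CPM in vector control libraries 2, 3 and 4, numbered as in the column headers, and 779, 799 and 814 CPM in FABP1 antisense libraries 2, 3 and 4. Every antisense library was far above every control library. On the log2 scale CDH17 rose by 1.32 (SE 0.07; interval at 95%, 1.16 to 1.47; edgeR adjusted p = 8.77e-07). Its 50 tested neighbours in gene order, 25 on either side, had a median log2 fold change of 0.41.

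CDH1 (gene ID 999) moved far less. It stood at 529, 580 and 534 CPM in the control and at 610, 648 and 627 CPM in the antisense libraries, and the groups did not overlap. The log2 fold change of CDH1 was 0.20 (SE 0.06, edgeR adjusted p = 0.0248), close to the 0.14 median of its neighbours. That call was lost in 4 of 6 fits that left out a library, those without control library 2 or 4 or antisense library 3 or 4 (edgeR adjusted p = 0.0622 to 0.0943). CDH3, which lies beside CDH1 and encodes P-cadherin, a classical cadherin of basal and proliferating epithelium, went the opposite way. Its level was 146, 143 and 155 CPM in the control against 123, 128 and 111 CPM, a log2 fold change of -0.29 (SE 0.08, edgeR adjusted p = 0.0102). CDH2, which encodes N-cadherin, the classical cadherin of neural and mesenchymal cells, had 2 counts over the control group and 4 over the other.

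Among the other CDH genes, low ones moved and CDH16 and CDH24 did not pass. CDH7, a type II classical cadherin known from the nervous system, stood at 2.97, 2.25 and 3.05 CPM in the control and 12, 10.3 and 11.2 CPM in the antisense libraries. This was a clear separation at a modest level (log2 fold change 2.01, SE 0.14, edgeR adjusted p = 5.68e-06). CDH23, a cadherin of the tip links of hair cells, rose by 2.74 (SE 0.31) on the log2 scale, from a mean of 0.261 ± 0.0975 CPM to 1.74 ± 0.146 CPM (SD, n = 3). CDH11, known from mesenchymal cells and bone, had 4, 0 and 0 counts in the control and 22, 20 and 47 in the antisense libraries (log2 fold change 4.34, SE 0.76, edgeR adjusted p = 0.00131). CDH11 could be tested only because it was high in the antisense libraries, and only 1 control library held any count, so the size of its change is poorly known. The medians of neighbouring genes were 0.14 for CDH7, 0.23 for CDH23 and 0.26 for CDH11. CDH26, a cadherin of gastrointestinal and airway epithelium, fell by 2.52 (SE 0.64) from 0.525 ± 0.0850 CPM to 0.0831 ± 0.0802 CPM, in a stretch of genes with a median of -0.50, and passed the filter through the control libraries alone. CDH16, the kidney cadherin, overlapped between groups (34.1 ± 3.32 and 35.7 ± 5.06 CPM; 95% interval of the log2 difference -0.20 to 0.33). CDH24 did too (8.37 ± 0.586 and 9.57 ± 0.831 CPM; -0.05 to 0.43).

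**Figure D2:**
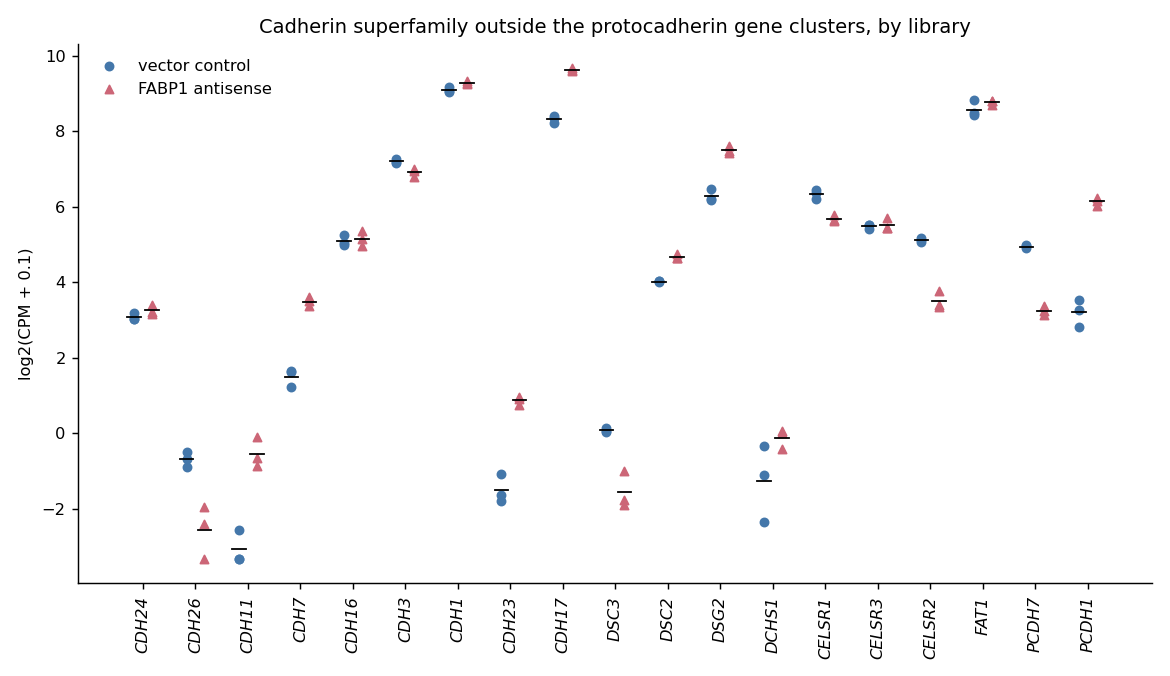
Level of the 19 tested members outside the protocadherin clusters, as log2(CPM + 0.1) on the vertical axis, with 1 point per library and a black bar at each group mean. CDH17, DSG2, PCDH1, CDH7 and CDH23 are higher in all 3 antisense libraries, while CELSR2 and PCDH7 are lower in all 3.

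Both desmosomal cadherins of simple epithelium rose, and the other 5 were low or had 0 counts. DSG2 and DSC2, the desmoglein and desmocollin of simple epithelia, form the adhesive pair of intestinal desmosomes. DSG2 (gene ID 1829) was measured at 72.6, 89.3 and 73.9 CPM in the control and 173, 179 and 194 CPM in the antisense libraries. All antisense values lay well above the control values, and the log2 fold change was 1.21 (SE 0.10, edgeR adjusted p = 1.19e-05). DSC2 (gene ID 1824) was at 16.4, 16.2 and 15.9 CPM against 25.1, 25.1 and 26.6 CPM. Its log2 fold change of 0.67 (SE 0.07, 95% interval 0.50 to 0.83) was smaller than that of DSG2, whose interval of 1.00 to 1.43 lay above it. Both genes and DSC3 are neighbours on chromosome 18, where the surrounding genes had medians of 0.05 to 0.07.

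DSC3, a desmocollin of stratified epithelium, fell. It had 0.938, 1.00 and 0.932 CPM in the control and 0.170, 0.403 and 0.196 CPM in the antisense libraries (log2 fold change -1.90, SE 0.37, edgeR adjusted p = 0.00245). DSG3 and DSG4, desmogleins of skin and hair, had 0 counts in the control. They had 17 and 25 counts over the antisense group, at least 5.63-fold and 8.28-fold higher against a floor of 3 counts over the control group, a floor that covers counting error only. DSC1 and DSG1, the pair of the outer epidermis, had 0 counts throughout. The antisense gene DSG2-AS1 also had 0 counts, as did the other antisense genes named for a member except CELSR3-AS1, which had at most 8 counts in a library.

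Of the giant cadherins, CELSR2 and CELSR1 fell and FAT1 did not pass. CELSR proteins are planar polarity cadherins, the relatives of fly Flamingo. CELSR2 (gene ID 1952) was at 33.5, 35.0 and 36.1 CPM in the control and 10.4, 13.5 and 10.1 CPM in the antisense libraries. The antisense libraries were all far below the control libraries (log2 fold change -1.62, SE 0.12, edgeR adjusted p = 7.07e-06). Genes around CELSR2 were also lower, with a median of -0.53. CELSR1 stood at 73.8, 83.0 and 88.0 CPM against 49.6, 54.9 and 50.2 CPM (log2 fold change -0.66, SE 0.09), with a neighbour median of -0.31. CELSR3 overlapped between groups (44.9 ± 2.05 and 46.3 ± 5.30 CPM; 95% interval -0.17 to 0.26).

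FAT1, a large cadherin of cell edges with tumour suppressor roles, ranged from 346 to 452 CPM in the control and from 419 to 450 CPM in the other group. The control range was set by library 3, which stood at 452 CPM against 346 and 357. FAT1 did not pass in the full set (log2 fold change 0.19, SE 0.10, edgeR adjusted p = 0.147), and without control library 3 it did (0.32, edgeR adjusted p = 0.00458). DCHS1, a partner of FAT4, was low and variable (0.387 ± 0.301 and 0.834 ± 0.155 CPM; edgeR adjusted p = 0.108). FAT4, FAT2 and DCHS2 had at most 11 counts in any library, and FAT3 had 0.

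PCDH1 and PCDH7, the only testable protocadherins outside the clusters, moved in opposite directions. PCDH1, a delta protocadherin of airway and other epithelia, stood at 7, 9.58 and 11.5 CPM in the control and 71.9, 75.5 and 65.3 CPM in the antisense libraries. The gap was far wider than the spread within either group, with a log2 fold change of 2.93 (SE 0.17, 95% interval 2.55 to 3.30, edgeR adjusted p = 1.55e-06), or 7.60-fold. Its neighbours had a median of 0.71, and of 0.26 once clustered protocadherins and other members were left out. PCDH7, another delta protocadherin, was at 30.1, 31.6 and 30.9 CPM against 8.72, 10.2 and 9.40 CPM. It fell by 1.71 on the log2 scale (SE 0.09, edgeR adjusted p = 7.71e-07), although its neighbours had a median of 0.29. PCDH18 had 22 counts over the control group and 0 over the other, at least 7.38-fold lower. PCDH9 had 0, 2 and 0 counts in the control and 10, 2 and 29 in the antisense libraries, so the groups overlapped. Another 8 of these 13 protocadherins had 0 counts in every library.

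Of the 16 PCDHB genes of chromosome 5, 9 were called higher. These are genes of a single coding exon that do not share constant exons. Among the 10 that could be tested, 8 of the 9 rises were at least 2-fold, and 0 genes were lower. Of all tested genes, 27.7% were called higher, 8.8% higher by at least 2-fold and 27.3% lower. PCDHB9, PCDHB11 and PCDHB12 passed the low count filter through the antisense libraries alone, so they could be tested only because they were high there. PCDHB4 did not pass (0.132 ± 0.102 and 0.294 ± 0.164 CPM; edgeR adjusted p = 0.155). Of the 6 untested PCDHB genes, 4 were also above the control in every antisense library, PCDHB6 overlapped between groups and PCDHB1 had 0 counts. The share of 31.7% above in every library is of tested genes, so it is no background for these 6. PCDHB17P, PCDHB18P and PCDHB19P, pseudogenes of the same cluster that were not members, had at most 12 counts in any library.

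Nearly all PCDHB promoters carried one shared word. Most clustered protocadherin promoters are known to hold a conserved element with a CGCT core, near which the insulator protein CTCF binds. A search for the word of 10 bases present in most PCDHB promoters, taken from 250 bases before to 50 after the start in RefSeq (GRCh38.p14), found GGTGGCGCTG on either strand. It was present in 12 of 14 PCDHB promoters (85.7%), in 0 of 13 PCDHA and 0 of 25 PCDHG promoter windows, and in 0.276% of 35116 promoters of all genes. The word was chosen from these same promoters, so its count among them is a description. The 7-base end of the word, GGCGCTG, on either strand, was in the same number of PCDHB promoters, in 5 of 25 PCDHG windows and in 11.5% of all promoters. The 12 PCDHB promoters held it on the strand of the gene, the PCDHG windows only on the opposite strand. A promoter was found for 81 of the 105 members. Windows of 50 bases are shown so that the shared word and its flanks can be compared, for the 7 tested PCDHB genes in which the window ends before the start, with the word in capitals 43 to 84 bases upstream. PCDHB8, which also rose, has it 2 bases upstream and is not shown. All lie on the plus strand of GRCh38.p14, whereas the build named for the counts is GRCh37.
PCDHB2, chr5:141094535-141094584: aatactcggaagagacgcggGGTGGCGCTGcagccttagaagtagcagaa
PCDHB3, chr5:141100384-141100433: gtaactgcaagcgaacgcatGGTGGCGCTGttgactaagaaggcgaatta
PCDHB4, chr5:141121714-141121763: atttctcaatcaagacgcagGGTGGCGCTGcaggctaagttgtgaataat
PCDHB16, chr5:141182301-141182350: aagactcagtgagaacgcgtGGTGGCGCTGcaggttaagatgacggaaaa
PCDHB9, chr5:141187065-141187114: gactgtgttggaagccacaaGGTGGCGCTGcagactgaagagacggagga
PCDHB12, chr5:141208634-141208683: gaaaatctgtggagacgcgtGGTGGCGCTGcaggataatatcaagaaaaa
PCDHB13, chr5:141213856-141213905: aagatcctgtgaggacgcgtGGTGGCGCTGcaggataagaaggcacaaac

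PCDHB4 has the word and did not pass, while PCDHB14 has no match in this window and rose. PCDHB12, with 3, 6 and 3 counts in the control and 46, 51 and 71 in the antisense libraries, had the largest log2 fold change of the cluster (3.73, SE 0.40, edgeR adjusted p = 8.28e-05). PCDHB13 stood at 0.660, 1.08 and 0.978 CPM against 2.45, 3.33 and 3.13 CPM (log2 fold change 1.73, SE 0.24). PCDHB14 gave nearly the same values, 1.09, 0.833 and 0.815 CPM against 2.82, 3.02 and 3.06 CPM (1.69, SE 0.20). These beta genes are similar in sequence, so reads may be split between them and single values are uncertain.

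PCDHB2 was the most abundant beta gene and rose least among those called. Its level was 4.98, 5.00 and 5.12 CPM in the control and 7.55, 9.10 and 6.99 CPM in the other group (log2 fold change 0.64, SE 0.13, edgeR adjusted p = 0.00243). Below it, PCDHB8 had 15, 10 and 11 counts in the control and 49, 52 and 74 in the antisense libraries (log2 fold change 2.26, SE 0.27). PCDHB11 (2.95), PCDHB9 (2.44), PCDHB16 (2.06) and PCDHB3 (1.34) also rose, with SE of 0.32 to 0.52 and at most 64 counts in any library. The tested genes around the PCDHB cluster that are not members of the superfamily had a median of 0.19. The 10 tested PCDHB genes, PCDHB4 included, had log2 fold changes of 0.64 to 3.73. Of those 10, 6 did not reach the filter level in all 3 control libraries. Low genes that rose were thus kept more readily, so setting them beside the neighbours is a description only.

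Summed over all 16 PCDHB genes, which does not depend on how reads were split between them, the level was 7.90, 8.401 and 8.11 CPM in the control and 19.0, 21.7 and 20.2 CPM in the antisense libraries. The groups were far apart, with a ratio of means of 2.50. An exact two-sided permutation test gave p = 0.1, the smallest that 3 against 3 libraries allow. The 15 PCDHA genes were close to silent, with 0, 2 and 3 counts in all over the control libraries and 10, 8 and 15 over the antisense libraries, and none could be tested.

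**Figure D3:**
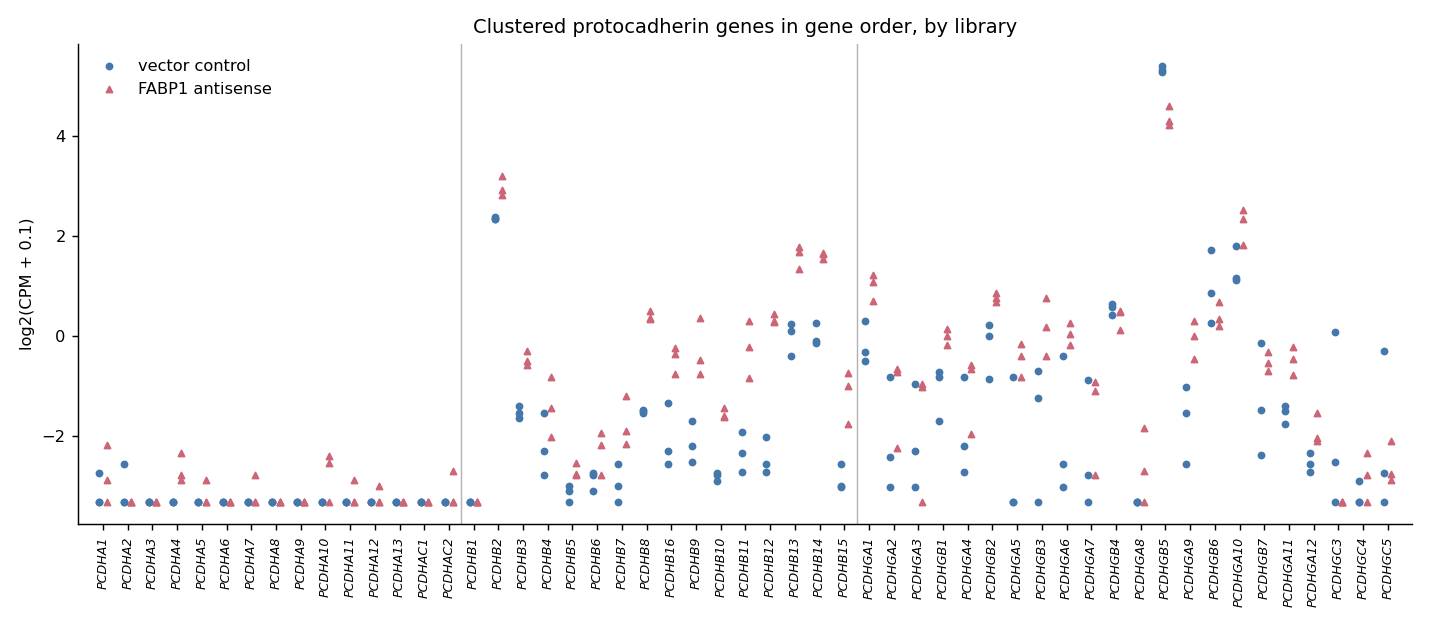
Level of the 53 clustered protocadherins as log2(CPM + 0.1), 1 point per library, in gene order from PCDHA (left) through PCDHB (middle) to PCDHG (right). PCDHA genes lie at the floor, PCDHB genes are mostly higher in the antisense libraries, and PCDHGB5 stands above all others in both groups and is lower in the antisense libraries.

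In the PCDHG cluster 1 gene dominated and fell. Its 22 genes join a variable first exon to shared constant exons, so reads from the constant exons belong to no single gene and the assignment made before deposit decides the per-gene values. PCDHGB5 (gene ID 56101) stood at 42.5, 40.0 and 39.2 CPM in the control and 19.8, 24.4 and 18.7 CPM in the antisense libraries. It fell by 0.95 on the log2 scale (SE 0.11, edgeR adjusted p = 0.000109), and the groups did not overlap. Neighbouring genes that are not members had a median of 0.21. PCDHGB5 held 84.9, 76.2 and 75.6% of all PCDHG counts in the control libraries and 51.6, 57.8 and 51.2% in the antisense libraries.

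The other PCDHG genes were low. Of the 17 tested, PCDHGB5 included, 6 were higher and 1 lower, and 10 did not pass. Against 27.7% of all tested genes called higher and 27.3% lower, 6 of 17 is near the background and is no result about the cluster. PCDHGA1 stood at 0.608, 1.13 and 0.699 CPM in the control and 2.02, 1.52 and 2.22 CPM in the antisense libraries (log2 fold change 1.25, SE 0.30, edgeR adjusted p = 0.00635). PCDHGA9 (1.95), PCDHGA11 (1.35), PCDHGB1 (1.20), PCDHGB2 (1.01) and PCDHGA10 (0.89) also rose. Several of these calls were lost when 1 library was left out: PCDHGB1 missed the threshold in 3 of these fits, PCDHGB2 in 4, PCDHGA10 in 2 and PCDHGA11 in 1. Those libraries were control library 2 and antisense libraries 2 and 3 for PCDHGB1, the same with antisense library 4 for PCDHGB2, control library 2 and antisense library 3 for PCDHGA10, and antisense library 4 for PCDHGA11. PCDHGB6 (2.01 ± 1.09 and 1.24 ± 0.234 CPM; edgeR adjusted p = 0.156) and PCDHGB4 (1.37 ± 0.111 and 1.20 ± 0.185 CPM) did not pass.

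Libraries of 1 group differed strongly at several of these low PCDHG genes. PCDHGA5 had 0, 19 and 0 counts in control libraries 2, 3 and 4, PCDHGA6 had 4, 27 and 1, and PCDHGA7 had 0, 18 and 2. In antisense library 3 PCDHGA3 had 0 counts, against 17 and 22 in antisense libraries 2 and 4. PCDHGC3 had 41 counts in control library 4, 3 in control library 3 and 0 elsewhere, while PCDHGC5 had 41 in control library 2 and at most 6 elsewhere. The number of PCDHG genes called higher was 13 without control library 3, 3 without antisense library 3, and 4 without control library 2 or antisense library 2 or 4.

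Summed over the 21 PCDHG genes other than PCDHGB5, the level was 7.54, 12.5 and 12.7 CPM in the control and 18.6, 17.8 and 17.8 CPM in the antisense libraries, a ratio of means of 1.66. Control library 2 stood apart below the others. With PCDHGB5 included, the cluster was lower in the antisense libraries, at 38.4, 42.3 and 36.5 CPM against 50.04, 52.5 and 51.9 CPM. Exact two-sided permutation tests gave p = 0.1 for each sum, again the smallest possible. The total of the cluster and the total of its minor genes, as assigned, thus moved in opposite directions. The minor total depends on how reads of the shared constant exons were divided between PCDHGB5 and the other genes.

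**Figure D4:**
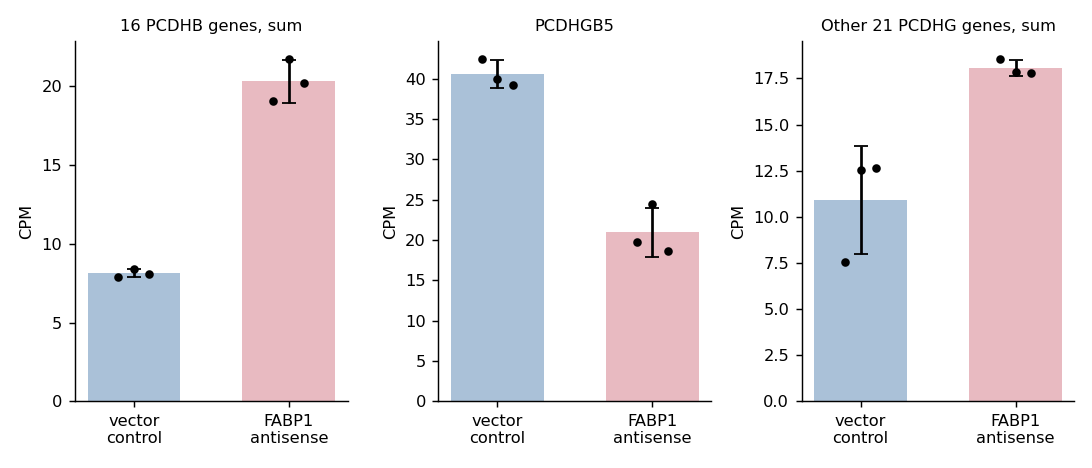
CPM of the 16 PCDHB genes summed, of PCDHGB5, and of the other 21 PCDHG genes summed, with bars at the mean, error bars of 1 SD and 1 point per library. The PCDHB sum rises from a mean of 8.14 to 20.3 CPM and the minor PCDHG genes from 10.9 to 18.1 CPM, while PCDHGB5 falls from 40.6 to 20.99 CPM.

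Of 18 tested genes known to control the protocadherin clusters, 3 rose, 3 fell and 12 did not pass (27.7% and 27.3% of all tested genes were higher and lower), with a median log2 fold change of 0.00. CTCF, whose loops bring enhancers to these promoters, did not pass (114 ± 2.301 and 120 ± 1.92 CPM; edgeR adjusted p = 0.321). STAG2 (0.66), NIPBL (0.37) and SMC3 (0.34), which encode cohesin subunits or its loader, rose. Others of this kind did not pass: STAG1 (0.20), RAD21 (0.14), SMC1A (-0.03) and MAU2 (-0.03). DNMT3B, a de novo DNA methyltransferase known to methylate these promoters, went from 68.4 ± 4.61 CPM to 35.3 ± 1.99 CPM (-0.95 on the log2 scale, SE 0.08). LRIF1 (-0.66), a partner of the silencing protein SMCHD1, and the histone methyltransferase gene SETDB1 (-0.36) fell, and SMCHD1 did not pass (-0.17, SE 0.11).

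Counts in the lists of partner genes are likewise to be read against 27.7% of all tested genes called higher and 27.3% called lower. Catenins and plaque proteins, which link cadherins to the cytoskeleton, moved in both directions. Of 14 tested, 7 rose, 5 fell and 2 did not pass, with a median of 0.05. CTNNB1, beta-catenin, which binds the tail of classical cadherins, fell by 0.40 (log2), from 170 ± 8.28 to 129 ± 2.90 CPM (SE 0.07, edgeR adjusted p = 0.00108). CTNNA1, alpha-catenin, rose by 0.19 (SE 0.06) and CTNND1, p120-catenin, by 0.23 (SE 0.07). Relatives of p120-catenin went both ways: ARVCF fell by 1.42 (SE 0.17) and PKP4 by 0.77 (SE 0.08), PKP2 rose by 0.32 (SE 0.08), and PKP3 did not pass (-0.10).

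In the desmosomal plaque, DSP, desmoplakin, rose by 0.26 (SE 0.08) on the log2 scale, from 550 ± 50.6 CPM to 657 ± 22.6 CPM. JUP, plakoglobin, did not pass (582 ± 53.9 and 517 ± 40.9 CPM; edgeR adjusted p = 0.129). PERP, a membrane protein needed for desmosomes, rose by 1.76 (SE 0.06), from 181 ± 3.49 CPM to 615 ± 17 CPM. EVPL, envoplakin, rose by 2.15 (SE 0.34) from 0.802 ± 0.423 CPM, whereas PPL, periplakin, fell by 0.46 (SE 0.08) from 167 ± 9.85 to 121 ± 10.1 CPM.

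All 4 genes called in the nectin list were lower. Nectins are adhesion molecules that work beside cadherins at adherens junctions, and afadin ties them to actin. AFDN, afadin, stood at 248 ± 20.01 CPM in the control and 164 ± 10.7 CPM in the other group (-0.59 on the log2 scale, SE 0.08), and NECTIN3 (-0.53), NECTIN1 (-0.47) and PVR (-0.37) also fell. NECTIN2 did not pass (-0.18, edgeR adjusted p = 0.0922).

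Of 13 tested regulators of CDH1, 7 rose, 2 fell and 4 did not pass, repressors and epithelial activators both being among the rises. SNAI1, a repressor of CDH1, rose by 0.92 (SE 0.13) from 6.17 ± 0.808 CPM to 11.7 ± 1.28 CPM, and the corepressor gene CTBP2 rose by 0.86. The epithelial genes GRHL2 (0.54), OVOL1 (0.58), ESRP1 (0.40) and ESRP2 (0.35) rose as well. KLF8 rose from 0.0405 ± 0.0702 to 0.421 ± 0.0298 CPM, but passed the low count filter through the antisense libraries alone. TCF4 fell by 1.45 and SNAI3 by 0.67. ZEB1, ZEB2 and SNAI2 were too low to test, and TWIST1 and TWIST2 had 0 counts.

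Of 18 tested proteases or protease subunits that act on cadherins, 8 were lower, 2 higher and 8 did not pass. ADAM10, the main sheddase of E-cadherin, rose by 0.56 (SE 0.10) from 115 ± 13.2 CPM to 170 ± 11.7 CPM. MMP7, matrilysin, rose from 0.0419 ± 0.0378 to 1.55 ± 0.333 CPM. It had 6 counts over the control group and could be tested only because it was high in the antisense libraries. ADAM15 (-0.70), ADAM8 (-0.69) and ADAM17 (-0.60) fell.

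Partners of the FAT, DCHS and CELSR proteins were lower in 13 and higher in 4 of 27 tested genes, with 10 not passing and a median of -0.19. The planar polarity gene PRICKLE2 fell by 4.70 (SE 0.14; log2), from 19.0 ± 1.97 CPM to 0.728 ± 0.0899 CPM, and its relative PRICKLE1 rose from 0.184 ± 0.165 to 1.81 ± 0.172 CPM (3.39, SE 0.67). VANGL1, which works with CELSR proteins, went from 43.0 ± 3.53 to 26.4 ± 1.28 CPM (-0.70, SE 0.09), while VANGL2 rose from 0.0289 ± 0.0501 to 0.594 ± 0.287 CPM. VANGL2 passed the low count filter through the antisense libraries alone. LIX1L fell by 2.90 and WWTR1 by 1.33, and the falls not named here ranged from -0.67 to -0.33. SCRIB (1.34) and FZD3 (0.68) were the remaining rises.

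Cadherin-related genes of the brush border, which lie outside the CDH naming rule, moved in both directions. CDHR2 and CDHR5 encode the protocadherins that link neighbouring microvilli. CDHR2 rose by 3.91 (SE 0.17) on the log2 scale, from 0.926 ± 0.187 CPM to 14.05 ± 1.68 CPM, whereas CDHR5 fell from 96.6 ± 7.57 to 64.8 ± 7.26 CPM (-0.58, SE 0.10). Of their cytoplasmic partners, MYO7B rose by 2.83 (SE 0.16) and ANKS4B by 1.12 (SE 0.08), and USH1C fell by 0.40 (SE 0.09). Of the calsyntenins, CLSTN2 rose by 2.18 and CLSTN1 fell by 0.81. The full list had 4 rises, 3 falls and 2 genes that did not pass.

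**Figure D5:**
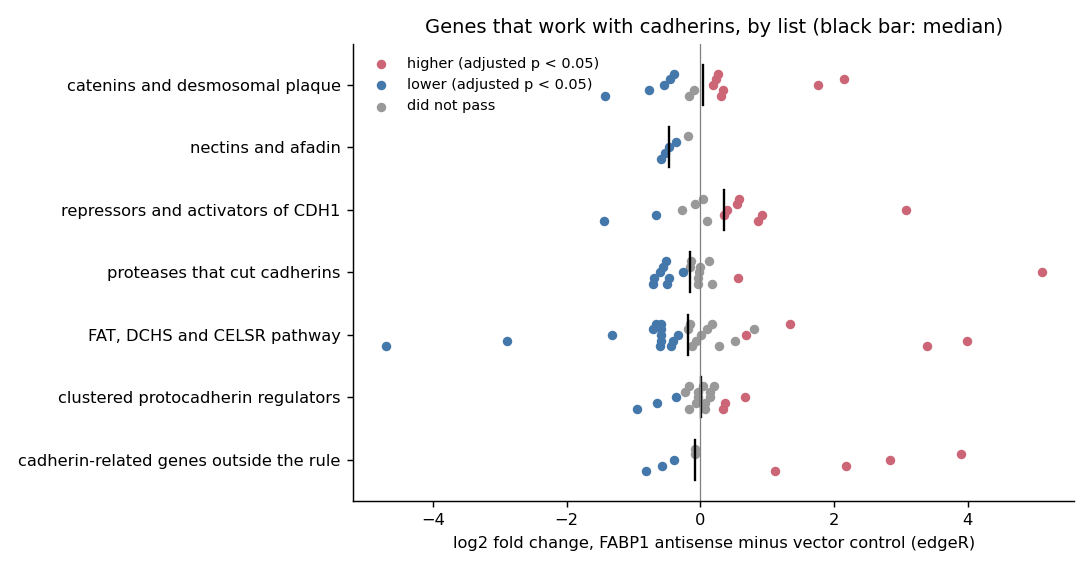
Log2 fold change of the tested genes of 7 lists of genes that work with cadherins or are related to them, 1 point per gene, with a black bar at each list's median. The nectin list has no gene to the right of 0, and PRICKLE2 (-4.70) and MMP7 (5.11) are the extremes. MMP7 could be tested only because it was high in the antisense libraries.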

How the data were processed

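Per the file headers, the authors deposited raw read counts per gene and library, without normalization. Per the submitters' processing notes, whose list gives no roles, StringTie 1.3.4d, HISAT2 2.1.0, Bowtie2 2.3.4.1, Trimmomatic 0.38 and bcl2fastq were used with GRCh37. The kit was TruSeq Stranded mRNA, per the labels' protocols; no source used here says whether counting used strand. The other 12 per-library columns were not used. Header numbers (2, 3 and 4) differ from the labels' replicate numbers, so columns were assigned to groups by name only. Within groups, chi-square over its degrees of freedom was 13.6 to 39.3 between libraries, so none was a copy of another.

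All 14640 genes passing filterByExpr were fitted in edgeR 4.0.16 (R 4.3.3; TMM scaling, quasi-likelihood test, Benjamini-Hochberg adjustment, threshold 0.05), after the fit was tested on simulated data. SE is the absolute log2 fold change over the square root of F. Lengths are of the longest matching GENCODE transcript. Neighbours follow RefSeq gene order; leaving out members there was added later. Permutation tests used scipy 1.17.1.

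Members, lists and tests were chosen with earlier results of these data known. Members called at 2-fold, 9 key members, up to 4 genes per partner list by size of change and 5 key partners were named by rule; any other gene was chosen once its values were known. Alternatives were scaling, filters, DESeq2 1.42.0, a replicate block and leaving out each library.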

Additional observations from a re-analysis of the deposited data

How the results depend on the processing

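Of 46 tested members, 23 were called higher and 7 lower. These counts were the same with DESeq2 size factors and with library size only, and 24 and 7 by DESeq2. With no filter 28 of 77 tested members were higher and 8 lower. With a stricter filter (at least 1 CPM in a group) 16 of 27 were higher and 5 lower. Of all genes, 4004 of 19228 were higher with no filter and 3818 of 13077 with the stricter one. The member counts moved by over 1.5 times only where members were removed by the rule itself: 8 were higher without the clustered protocadherins, and 4 were lower at a 2-fold minimum. Leaving out 1 library gave 20 to 34 higher and 7 to 8 lower of 46 to 49 tested members, with 34 without control library 3. The stricter filter left 5 PCDHB genes tested, all higher, 4 of which reached it only in the antisense group. The counts for the partner lists were the same with DESeq2 size factors. A replicate block on the header numbers gave 24 and 7. Among the called members and FAT1, it changed the call of CDH1 alone (adjusted p = 0.0643 with edgeR). With it the PCDHG genes called higher went from 6 to 8. Same-numbered libraries correlated at 0.133, -0.122 and -0.206 in their deviations from group means, and different-numbered ones at -0.173 to 0.262. Deviations from a mean of 3 libraries are not independent, so these values cannot settle whether the numbers pair the libraries. The alternatives were followed gene by gene for 31 tested members, which were the called members and FAT1. Of these, 25 kept their call in every alternative that could be fitted, and none reversed. The other members that did not pass were followed only as counts by subfamily. Depth limits the 31 members with few counts: 3 counts over a group correspond to about 0.021 CPM.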
